A study of Homo sapiens with 12 samples.

Results

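The 45 genes described here encode the machinery that carries a cell from the end of G1 into S phase and copies its DNA. They were taken by name from textbook roles, but with earlier results of these data known. All 45 were among the 26365 genes of the deposited table: 12 that license replication origins, 4 partners of the replicative helicase, 5 of the sliding clamp and its loader, 7 that synthesize and join DNA, 4 that supply nucleotides, 7 E-type cyclins and E2F factors, and 6 of chromatin assembly, histone mRNA, protein turnover and repair. Their RNA was measured by poly-A sequencing in HCC70, a human breast cancer line of the basal-like, triple-negative kind. One set of these cells stably carried an shRNA that targets LAD1 (called shLAD1 cells) and the other a scrambled shRNA as its control (scramble cells). After a night without serum they were exposed to EGF, the epidermal growth factor, at 50 ng/ml for 0, 40 or 240 min. The 6 groups were therefore shLAD1 cells at 0, 40 and 240 min and scramble cells at 0, 40 and 240 min, with 2 libraries each. LAD1 encodes ladinin-1, and the title of the series names it as a filamin binder that acts on actin dynamics after EGF. All 6 groups share the overnight starvation and a stable shRNA. No other LAD1-directed shRNA appears in the labels, so loss of LAD1 and any other effect of that shRNA cannot be told apart. No EGF-free library appears at 40 or 240 min, so EGF and the time or handling since 0 min cannot be told apart.

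Before S phase, the origin recognition complex recruits CDC6 and CDT1, which load rings of MCM2 to MCM7 on DNA; geminin (GMNN) binds CDT1 and blocks further loading. Cyclin E and its kinase help to release E2F factors from the retinoblastoma protein. E2F1, E2F2 and E2F3 then activate transcription of most of the genes named here, while E2F7 and E2F8 repress it later in S phase. Growth factors such as EGF drive starved cells towards this step over many hours, through early genes such as MYC and then cyclin D.

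The 12 libraries held 12428618 to 16721013 reads, of which the 45 genes took 0.431% to 0.565%. LAD1 averaged 978, 1076 and 2416 normalized counts in shLAD1 cells at 0, 40 and 240 min, against 6165, 6165 and 9648 in scramble cells, so 15.9%, 17.5% and 25% of the scramble level was left. Of the defining markers, the basal keratin KRT5 stood at 39620 to 78200 normalized counts, the estrogen receptor gene ESR1 at 18 to 29 and the progesterone receptor gene PGR at 0 to 1.03, but the basal factor TP63 reached only 15.4 to 34.5. The luminal keratin KRT19 was also present, at 28880 to 51330. The libraries numbered 1 and 2 differed more in shLAD1 cells than in scramble cells: the median absolute log2 difference over the 45 genes was 0.127 to 0.139 in the 3 shLAD1 groups and 0.065 to 0.093 in the 3 scramble groups. The widest gap was that of GMNN in shLAD1 cells, where number 2 exceeded number 1 by 0.56 to 0.77 on the log2 scale. Same-numbered libraries deviated together across groups, so the 12 libraries may also be read as 4 cell populations, each sampled at 3 times. The labels name no such populations, and the word below means the 3 same-numbered libraries of 1 shRNA. Fold changes below are differences of mean log2(normalized count + 1) ± the standard error of a limma fit over all genes, with 2 libraries per group, and a gene was called at an adjusted p under 0.05.

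After 240 min of EGF most of the 45 genes stood lower than in starved cells. Averaged over both kinds of cell, 23 genes fell and 3 rose at 240 min, against 0 min, and 19 were not called. Among all 13950 genes tested, 16.3% fell, 18.7% rose and 35% were called in either direction, so 51.1% of the 45 genes fell against a background of 16.3%. The 45 genes were chosen with earlier results of these data known, so this contrast is a description and not an independent test. The median log2 fold change was -0.22 over the 45 genes and -0.02 over all genes. Between 0 and 240 min, 33 of the 45 genes were lower in all 4 cell populations, as were 32.9% of all genes, and CCNE1, E2F3, UHRF1 and SLBP were higher in all 4, as were 32.2% of all genes. The 8 with mixed signs were MCM4, MCM7, GINS2, POLA1, POLE, FEN1, RRM2 and TYMS. In bulk RNA, fewer cells in S phase and less RNA per cell cannot be told apart. The summed level of 23 mitosis genes moved with these falls, at 35140 to 39540 normalized counts in shLAD1 cells at 240 min, against 47980 to 52840 at 0 min, and at 39860 to 40140 in scramble cells at 240 min, against 55970 to 56650 at 0 min. Of 12 basal epithelial markers 9 rose, and their sum was 117200 to 147800 in shLAD1 cells at 240 min, against 77900 to 103300 at 0 min, and 114900 to 128900 in scramble cells at 240 min, against 70840 to 77420 at 0 min. Of 9 fibroblast markers PDGFRA fell by 1.37 and DCN was at 0 in all libraries, and the sum was 515 to 570.3 in shLAD1 cells at 240 min, against 663 to 824 at 0 min, and 269 to 295 in scramble cells at 240 min, against 318 to 384 at 0 min. Of 10 luminal and hormone receptor markers 3 rose and 2 fell. Their sum was 77810 to 84100 in shLAD1 cells at 240 min, against 53420 to 57740 at 0 min. In scramble cells it was 65410 to 68970 at 240 min, against 47470 to 47790 at 0 min. The part of these lists in the result was not tested.

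How the libraries were scaled set how many genes counted as lower. Scaled by total reads, the median of all genes at 240 min shifted by -0.12 on the log2 scale and the 45 genes split into 32 lower and 1 higher. With upper-quartile scaling the split was 25 lower and 1 higher. Among all genes tested, 16.3% were called lower with the deposited scaling, 19.4% with upper-quartile and 27.9% with total-count scaling. The share of rises among all called genes was 53.4% with the deposited scaling, 45.6% with upper-quartile and 31.5% with total-count scaling. Relative to the median of all genes, the median of the 45 genes was -0.20 under each of the 3 scalings. Of the 3 rises, that of E2F3 alone was called under all 3 scalings, and the small positive values of MCM7, POLE and RRM2 turned negative under both alternatives.

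**Figure D1:**
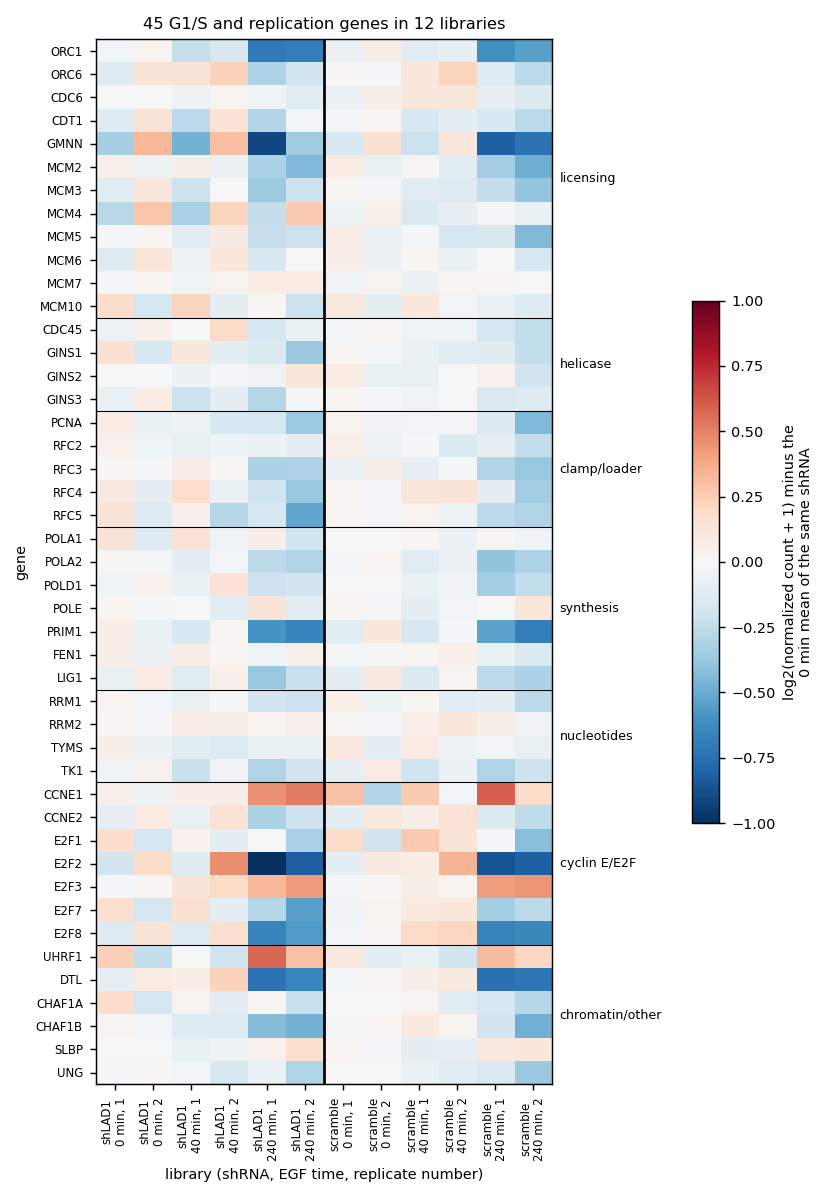
Level of each of the 45 genes (rows, grouped by role) in each of the 12 libraries (columns, shLAD1 left of scramble), as log2(normalized count + 1) minus the 0 min mean of the same shRNA, where blue is lower and red is higher. Averaged over both shRNAs, 38 of the 45 genes are below 0 in the 240 min columns, with ORC1, GMNN, PRIM1, E2F2, E2F8 and DTL the deepest blue, while the 40 min columns are paler except where the 2 libraries of shLAD1 cells differ, as for GMNN and MCM4.

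Sequences near the starts of some of these genes carry the letters that E2F factors are known to bind. The 250 bases upstream of the annotated starts (RefSeq, GRCh38.p14) were searched on both strands for TTTCCCGC, TTTCGCGC, TTTGCCGC and TTTGGCGC, whose reverse complements are GCGGGAAA, GCGCGAAA, GCGGCAAA and GCGCCAAA, with overlapping matches counted separately. A match was present for 19 of the 41 genes with a promoter in the table (46.3%) and for 928 of 27305 genes in the whole table (3.4%). CCAAT, searched likewise with its reverse complement ATTGG, was present for 26 of the 41 (63.4%) and for 37% of the whole table. The median GC content of these windows was 68% for these 41 genes and 58% for the whole table. Windows are shown for 4 genes that fell in each kind of cell at 240 min (DTL, E2F2, POLA2, RFC3), PCNA as the clamp itself, 2 that rose (E2F3, UHRF1) and 2 that were not called (E2F1, POLE). Each is written 5′ to 3′ on the gene's own strand with the E2F letters in capitals.
DTL: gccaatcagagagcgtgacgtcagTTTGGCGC
E2F2: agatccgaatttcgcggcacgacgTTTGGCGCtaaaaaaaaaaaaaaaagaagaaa
POLA2: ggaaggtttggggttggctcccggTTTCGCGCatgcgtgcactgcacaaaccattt
RFC3: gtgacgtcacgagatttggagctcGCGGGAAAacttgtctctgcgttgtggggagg
PCNA: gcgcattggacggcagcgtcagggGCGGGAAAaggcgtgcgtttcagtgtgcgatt
E2F3: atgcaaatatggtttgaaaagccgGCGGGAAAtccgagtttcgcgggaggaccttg
UHRF1: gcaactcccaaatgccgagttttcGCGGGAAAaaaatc
E2F1: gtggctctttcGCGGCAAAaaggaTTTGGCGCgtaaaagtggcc
POLE: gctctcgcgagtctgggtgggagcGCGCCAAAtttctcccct
The windows lie at chr1:212035716-212035747 (DTL, plus strand), chr1:23531244-23531299 (E2F2, minus), chr11:65261885-65261940 (POLA2, plus), chr13:33818070-33818125 (RFC3, plus), chr20:5126650-5126705 (PCNA, minus), chr6:20401802-20401857 (E2F3, plus), chr19:4909463-4909500 (UHRF1, plus), chr20:33686386-33686429 (E2F1, minus) and chr12:132687343-132687384 (POLE, minus). The match lies nearest to the start in DTL, 8 bases upstream, and 59 bases upstream in PCNA, while E2F1 holds 2 matches in its window. The share of genes that fell at 240 min was 47.4% with a match and 50% without. Of the 19 genes with it, 9 fell, 2 rose and 8 were not called, with a median log2 fold change of -0.19. Of the 22 without it, 11 fell, 1 rose and 10 were not called, with a median of -0.20. A match is a description of these letters and not a measured site.

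Origin licensing genes fell or were not called at 240 min. Averaged over both kinds of cell, 6 of the 12 fell, none rose, and the median log2 fold change was -0.20. ORC1, the subunit of the origin recognition complex whose level follows the cell cycle, had 458 and 465 normalized counts in shLAD1 cells at 240 min, against 735 and 760.2 at 0 min. In scramble cells ORC1 had 423 and 444 at 240 min, against 621 and 677 at 0 min. The 240 min libraries lay below all 0 min libraries, and the mean change was -0.64 ± 0.05 (adjusted p = 4.45e-05), which left 0.643 of the 0 min level. ORC6, the smallest subunit of the same complex, fell by 0.22 ± 0.08 (adjusted p = 0.0467), a call lost in DESeq2 (adjusted p = 0.0684) and without any 1 of 7 of the 8 libraries at 0 and 240 min, with adjusted p of 0.054 to 0.144.

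Of the loaders and their inhibitor, GMNN fell while CDC6 and CDT1 were not called. CDC6, which joins ORC to the helicase rings, had 1005 and 958 normalized counts in shLAD1 cells at 240 min, against 1041 and 1034 at 0 min, and 893 and 859.5 in scramble cells at 240 min, against 907 and 986 at 0 min. Its change of -0.10 ± 0.05 was not called (adjusted p = 0.174), and neither was that of CDT1, at -0.19 ± 0.10 (adjusted p = 0.185), although CDT1 was called lower without the shLAD1 population numbered 1 (adjusted p = 0.0397) or 2 (adjusted p = 0.0413). GMNN had 966 and 1421 normalized counts in shLAD1 cells at 240 min, against 1444 and 2287 at 0 min. In scramble cells GMNN had 1344 and 1418 at 240 min, against 2128 and 2621 at 0 min. The 240 and 0 min libraries did not overlap within either kind of cell, yet the 2 shLAD1 populations were far apart, so the change of -0.70 ± 0.22 had an adjusted p of 0.0385. The call on GMNN was lost without any of 6 of the 8 libraries, with adjusted p of 0.0595 to 0.115, and with a replicate block, which compares libraries of the same number, GMNN was also called within scramble cells (adjusted p = 0.00519) and within shLAD1 cells (adjusted p = 0.014).

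Among the subunits of the MCM ring, MCM2, MCM3 and MCM5 fell while MCM4, MCM6 and MCM7 were not called. MCM2 had 2713 and 2485 normalized counts in shLAD1 cells at 240 min, against 3493 and 3266 at 0 min, and 2309 and 2089.8 in scramble cells at 240 min, against 3082 and 2787 at 0 min. Within each kind of cell both 240 min libraries lay below both 0 min libraries, and the mean change was -0.40 ± 0.06 (adjusted p = 0.00129). MCM3 fell by 0.30 ± 0.07 (adjusted p = 0.011) and MCM5 by 0.26 ± 0.08 (adjusted p = 0.0264). MCM5 was no longer called without either scramble library at 0 min number 1 or 240 min number 2, nor without any 1 of the 4 shLAD1 libraries at 0 and 240 min, with adjusted p of 0.051 to 0.0909. MCM7 had the highest value of the group, 0.04 ± 0.04, and MCM4 changed by -0.01 ± 0.17 and MCM6 by -0.08 ± 0.08. MCM10, which acts when the loaded helicase is activated, changed by -0.10 ± 0.10 (adjusted p = 0.51).

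Of the helicase partners, none was called at 240 min in the average without the replicate block, and CDC45 (adjusted p = 0.0231) and GINS1 (adjusted p = 0.0154) were called lower with it. CDC45 and the GINS proteins join the MCM ring to form the active helicase. The 4 genes had a median log2 fold change of -0.15, between -0.22 ± 0.09 for GINS1 (adjusted p = 0.0845) and -0.02 ± 0.07 for GINS2 (adjusted p = 0.875). CDC45, at -0.16 ± 0.06, lay close to the threshold (adjusted p = 0.0571), and edgeR called it (adjusted p = 0.0397).

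Of the sliding clamp and its loader, 4 of the 5 genes fell, with a median of -0.28. RFC3, a small subunit of the loader that opens the clamp, had 753 and 757 normalized counts in shLAD1 cells at 240 min, against 943 and 929 at 0 min, and 955 and 896 in scramble cells at 240 min, against 1123 and 1212 at 0 min. Its 240 min libraries were lower in each kind of cell, without overlap, by -0.32 ± 0.05 (adjusted p = 0.00108). RFC4 and RFC5, its neighbours in the loader, fell by 0.26 and 0.31 on the log2 scale (adjusted p = 0.0347 and 0.0448), while RFC2 changed by -0.12 ± 0.06 (adjusted p = 0.141, or 0.0444 with the replicate block). Those 2 falls were lost without any 1 of 5 libraries for RFC4 (adjusted p 0.0773 to 0.12) and of 6 for RFC5 (adjusted p 0.0913 to 0.137). PCNA, the clamp that holds polymerases on DNA, had 2661 and 2334 normalized counts in shLAD1 cells at 240 min, against 3153 and 2851 at 0 min, and 2615 and 2128 in scramble cells at 240 min, against 2955 and 2824 at 0 min. The groups did not overlap within either kind of cell, and the mean change was -0.28 ± 0.08 (adjusted p = 0.0193). The call on PCNA was lost without number 1 at 0 min in either kind of cell or number 2 at 240 min in either kind, with adjusted p of 0.0603 to 0.0649. A processed copy, PCNAP1, has its own line in the table, so reads of PCNA may be split.

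Of the 7 genes of DNA synthesis, 4 fell and none rose, with a median of -0.25, and PRIM1 had the lowest value. PRIM1, the catalytic subunit of primase, had 222 and 211 normalized counts in shLAD1 cells at 240 min, against 350.1 and 319 at 0 min, and 214 and 193 in scramble cells at 240 min, against 289 and 333 at 0 min. All 4 libraries at 240 min lay below all 4 at 0 min, and the change was -0.62 ± 0.08 (adjusted p = 0.000579), which left 0.652 of the 0 min level. POLA2, the second subunit of the polymerase that primase works with, fell by 0.32 ± 0.05 (adjusted p = 0.00102), whereas its catalytic partner POLA1 changed by -0.04 ± 0.08 (adjusted p = 0.765). POLD1, the catalytic subunit of lagging-strand polymerase delta, fell by 0.25 ± 0.06 (adjusted p = 0.0083), and POLE, its leading-strand counterpart, changed by 0.04 ± 0.06 (adjusted p = 0.705). LIG1, which seals Okazaki fragments, fell by 0.30 ± 0.07 (adjusted p = 0.0107), and FEN1, which trims their flaps, changed by -0.05 ± 0.05 (adjusted p = 0.492).

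Of the nucleotide supply genes, TK1 and RRM1 fell and RRM2 and TYMS were not called. RRM2, the small subunit of ribonucleotide reductase whose level rises in S phase, had 4782 and 4823 normalized counts in shLAD1 cells at 240 min, against 4703 and 4616 at 0 min. In scramble cells RRM2 had 4953 and 4652 at 240 min, against 4787 and 4734 at 0 min. The values lay within a narrow band in all 12 libraries, 4616 to 5133, and the change was 0.03 ± 0.04 (adjusted p = 0.642). RRM1, the large subunit, fell by 0.19 ± 0.06 (adjusted p = 0.0317), and TK1, which salvages thymidine, by 0.25 ± 0.07 (adjusted p = 0.0173). The call on RRM1 was lost without any 1 of 6 libraries (adjusted p 0.0528 to 0.108) and that on TK1 without any 1 of 4 (adjusted p 0.0547 to 0.0684). TYMS, which makes thymidylate, changed by -0.06 ± 0.06 (adjusted p = 0.496). In the annotation used here, exons of ENOSF1 on the opposite strand overlap 58.2% of TYMS exon bases, and the library kit does not keep strand, so their reads cannot be told apart.

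The E-type cyclins and E2F factors held both the largest fall and the largest rise among the 45 genes. E2F2, an activator, had 1358 and 1652 normalized counts in shLAD1 cells at 240 min, against 2565 and 3320 at 0 min. In scramble cells E2F2 had 1899 and 1965 at 240 min, against 3229.7 and 3702 at 0 min. Every 240 min library lay below every 0 min library, and the change was -0.90 ± 0.14 (adjusted p = 0.00163), which left 0.536 of the 0 min level. E2F8, a repressor, had 518 and 555 normalized counts in shLAD1 cells at 240 min, against 754 and 897 at 0 min. In scramble cells E2F8 had 509.9 and 519 at 240 min, against 796 and 826 at 0 min. Again the times did not overlap, with a change of -0.64 ± 0.08 (adjusted p = 0.000317). E2F7, its close relative, fell by 0.36 ± 0.10 (adjusted p = 0.018), a call lost without any 1 of 4 libraries, with adjusted p of 0.053 to 0.0605: scramble at 0 min number 2 and at 240 min number 1, and shLAD1 at 0 min number 1 and at 240 min number 2.

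E2F3 went the other way from E2F2. E2F3, also an activator, had 872 and 928 normalized counts in shLAD1 cells at 240 min, against 687 and 696 at 0 min, and 940 and 954 in scramble cells at 240 min, against 693 and 714 at 0 min. All 240 min libraries lay above all 0 min libraries, and E2F3 rose by 0.40 ± 0.05 (adjusted p = 0.000241). E2F1 had 1943 and 1556 normalized counts in shLAD1 cells at 240 min, against 2200 and 1722 at 0 min, and 1744 and 1303 in scramble cells at 240 min, against 1998 and 1541 at 0 min. Here the 2 numbers within a group differed by more than the times did, and the change of -0.19 ± 0.13 was not called (adjusted p = 0.309). With the replicate block E2F1 was called lower (adjusted p = 0.0177).

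The 2 genes for cyclin E moved in opposite directions. CCNE1 had 366 and 382 normalized counts in shLAD1 cells at 240 min, against 276 and 258 at 0 min. In scramble cells CCNE1 had 440.1 and 329.6 at 240 min, against 355 and 237 at 0 min. The times did not overlap in shLAD1 cells and overlapped in scramble cells, and the rise was 0.44 ± 0.14 (adjusted p = 0.0376). That call was lost without any 1 of 6 of the 8 libraries, with adjusted p of 0.0632 to 0.128. CCNE2 fell by 0.23 ± 0.08 (adjusted p = 0.0397), a call also lost without any 1 of 6 libraries, with adjusted p of 0.0539 to 0.137. Exons of INTS8 on the opposite strand overlap 47.5% of CCNE2 exon bases, and their reads cannot be told apart.

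Of the last 6 genes, 3 fell, 1 rose and 2 were not called. DTL, the adaptor of a ubiquitin ligase that removes CDT1 during S phase, had 626 and 664 normalized counts in shLAD1 cells at 240 min, against 986 and 1107 at 0 min. In scramble cells DTL had 608 and 618 at 240 min, against 1011 and 1032 at 0 min. All 240 min libraries lay far below all 0 min libraries, and the change of -0.72 ± 0.06 (adjusted p = 4.24e-05) left 0.609 of the 0 min level. CHAF1B, a subunit of the complex that places histones on new DNA, fell by 0.39 ± 0.07 (adjusted p = 0.00243), while its partner CHAF1A changed by -0.16 ± 0.09 (adjusted p = 0.202, or 0.0463 with the replicate block). UNG, which removes uracil from DNA, fell by 0.22 ± 0.07 (adjusted p = 0.0373), a call lost without any 1 of 6 libraries (adjusted p 0.0699 to 0.126). SLBP, which binds the stem-loop of histone mRNA, changed by 0.10 ± 0.04 (adjusted p = 0.111).

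UHRF1, which guides maintenance of DNA methylation, was the third gene that rose. It had 672 and 553 normalized counts in shLAD1 cells at 240 min, against 532 and 382 at 0 min, and 466 and 432 in scramble cells at 240 min, against 399.6 and 349.6 at 0 min. The times did not overlap within either kind of cell, and the change was 0.35 ± 0.12 (adjusted p = 0.0446). The call on UHRF1 was lost in edgeR (adjusted p = 0.0598) and without any 1 of the 4 scramble libraries, of shLAD1 at 0 min number 2 or of shLAD1 at 240 min number 1, with adjusted p of 0.0616 to 0.138.

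**Figure D2:**
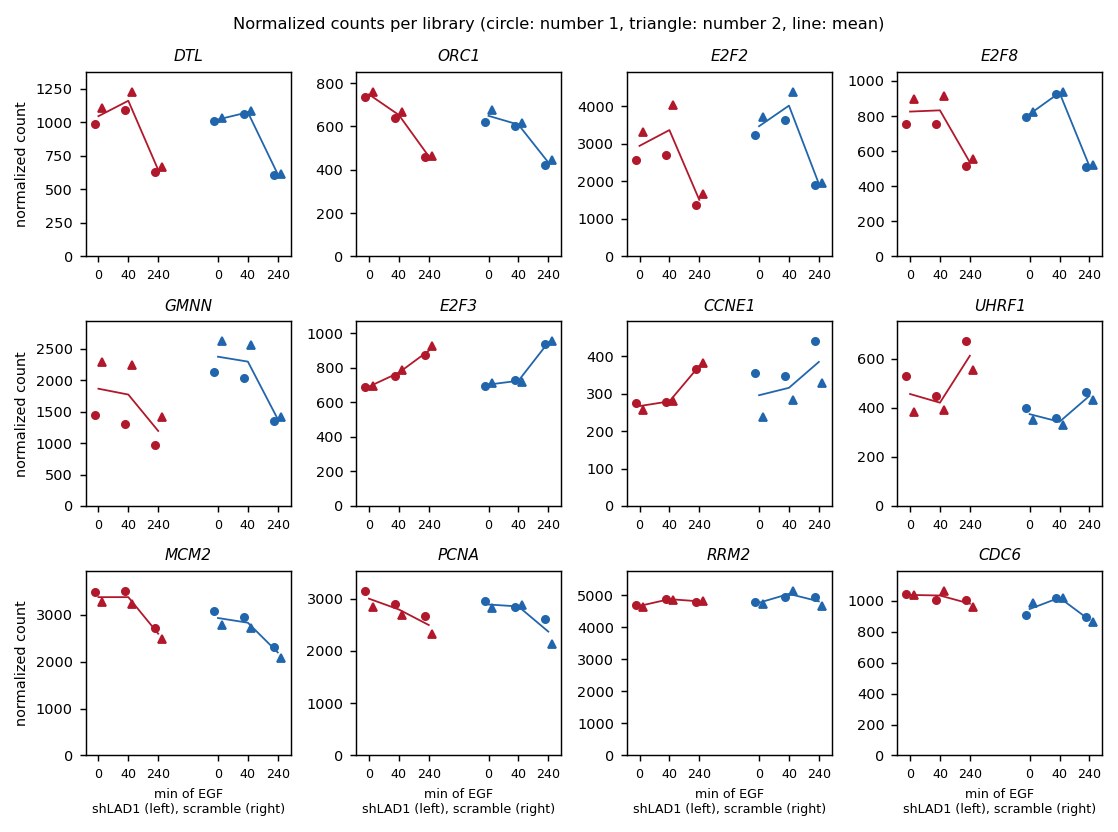
Normalized counts per library (y, from 0) by min of EGF (x) for 12 of the genes, with shLAD1 in red on the left and scramble in blue on the right of each panel, a circle for the library numbered 1, a triangle for number 2 and a line through the means. DTL, ORC1, E2F2, E2F8 and GMNN drop at 240 min, E2F3 rises, RRM2 stays between 4616 and 5133 in every library, and the circles and triangles of GMNN are far apart in shLAD1 cells.

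Taken separately, the 2 kinds of cell gave fewer calls. In shLAD1 cells 9 of the 45 genes fell at 240 min and E2F3 rose, against 7.76% and 10.8% of all genes that fell and rose (18.5% in either direction). In scramble cells 10 fell and E2F3 rose, against 8.44% and 11.7% of all genes (20.2% in either direction). The medians were -0.20 in shLAD1 cells and -0.21 in scramble cells, against -0.01 and -0.02 over all genes. DTL, ORC1, E2F8, PRIM1, E2F2, CHAF1B, RFC3, MCM2 and POLA2 fell in both, and POLD1 fell in scramble cells by 0.29 ± 0.08 (adjusted p = 0.0296) and changed in shLAD1 cells by -0.20 ± 0.08 (adjusted p = 0.118, or 0.0338 with the replicate block). With the replicate block 20 genes fell and 3 rose in shLAD1 cells, against 13.3% of all genes that fell, and 20 fell and 1 rose in scramble cells, against 14.7%. The genes it added were GMNN, MCM3, PCNA, RFC4, RFC5, LIG1 and TK1 in both kinds of cell, POLD1, RRM1, CCNE1, CCNE2, E2F7 and UHRF1 in shLAD1 cells and MCM5, CDC45 and UNG in scramble cells, with adjusted p of 0.00491 to 0.0478. In the average over both kinds of cell the block gave 28 falls and 3 rises, with 22.5% of all genes lower. Calls on 26 genes were shared by that fit and the fit without a block. A block within each shRNA gave 32 falls and 4 rises in the average, with 8343 of all genes called, against 4885 without a block. Without scramble at 0 min number 2 or at 240 min number 2, the scramble count of 11 dropped to 5, and without scramble at 0 min number 1 to 7. Over all genes these fits called 1355, 1399 and 1503 in that order, against 2813 with all libraries. In the average, the count of 26 dropped to 16 without scramble at 0 min number 2, scramble at 240 min number 2 or shLAD1 at 240 min number 2, and to 17 without scramble at 0 min number 1. Over all genes these fits called 3757 to 4052, against 4885 with all libraries. DTL, ORC1, E2F3, E2F8, PRIM1, POLA2, RFC3, MCM2, MCM3, E2F2, CHAF1B, POLD1 and LIG1 kept their calls in the average under every alternative tried.

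With total-count scaling the falls numbered 19 in shLAD1 cells and 22 in scramble cells, with 1 rise in each. Among all genes, 13.8% in shLAD1 cells and 15.9% in scramble cells were then called lower, against 7.76% and 8.44% with the deposited scaling. The share of rises among all called genes was 58.1% in each kind of cell with the deposited scaling. It was 34.6% in shLAD1 cells and 34.1% in scramble cells with total-count scaling.

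**Figure D3:**
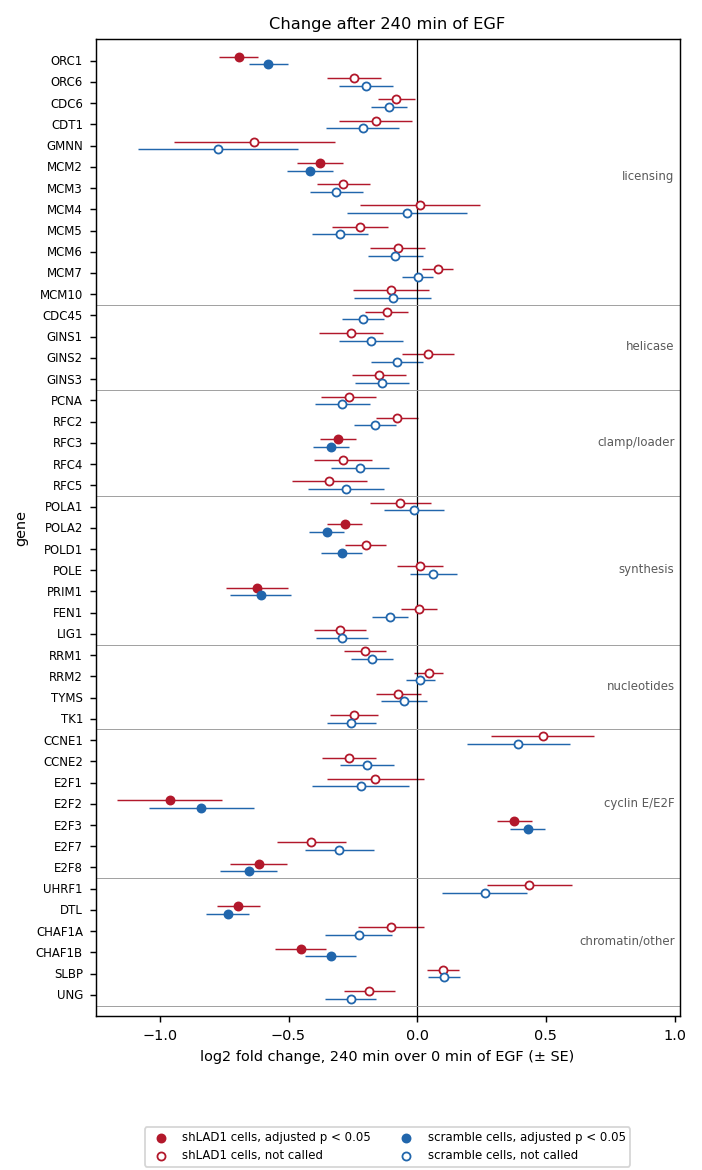
Log2 fold change (x, ± SE) of each of the 45 genes (y, grouped by role) at 240 min over 0 min of EGF, in shLAD1 cells (red) and in scramble cells (blue), with filled points at an adjusted p under 0.05. Most points lie left of 0, the filled ones farthest left are E2F2, DTL, ORC1, E2F8 and PRIM1, and E2F3 has the filled points right of 0.

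At 40 min of EGF none of the 45 genes was called in either kind of cell. The 40 min and 240 min comparisons share their 0 min libraries. In shLAD1 cells 1.04% of all genes were called and in scramble cells 0.853%, nearly all of them higher. At an unadjusted p under 0.05 limma listed 2 of the 45 genes and 761 of all genes in shLAD1 cells, and 0 of the 45 and 634 of all in scramble cells, and edgeR and DESeq2 also called 0 of the 45 in both. The 2 genes were ORC1 and E2F3. ORC1 had 735 and 760.2 normalized counts at 0 min, 638 and 667 at 40 min and 458 and 465 at 240 min in shLAD1 cells. In scramble cells ORC1 had 621 and 677 at 0 min, 603 and 614 at 40 min and 423 and 444 at 240 min. The 40 min libraries thus lay between the other times in each kind of cell, at a change from 0 min of -0.20 ± 0.08 in shLAD1 cells (adjusted p = 0.745) and -0.09 ± 0.08 in scramble cells (adjusted p = 1).

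Over the 45 genes, the log2 fold changes at 40 min ran from -0.20 (ORC1) to 0.18 (ORC6) in shLAD1 cells and from -0.13 (CDT1) to 0.21 (E2F2) in scramble cells, with medians of -0.02 and -0.04. DTL, which had the smallest adjusted p at 240 min, had 1094 and 1229 normalized counts in shLAD1 cells at 40 min, against 986 and 1107 at 0 min, and 1065 and 1086 in scramble cells at 40 min, against 1011 and 1032 at 0 min. E2F2 likewise was at 2689 and 4037 in shLAD1 cells at 40 min, against 2565 and 3320 at 0 min, and at 3643 and 4384 in scramble cells at 40 min, against 3229.7 and 3702 at 0 min. Both genes were therefore no lower at 40 min than at 0 min, although neither difference was called. By role, the extremes at 40 min were GINS3 and CDC45 in the helicase group (-0.15 and 0.10 in shLAD1 cells), RFC5 and RFC4 in the clamp group (-0.12 and 0.05) and TK1 and RRM2 in nucleotide supply (-0.13 and 0.06).

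LAD1 knockdown left the 45 genes split between small rises and small falls. Averaged over the 3 times, 3 genes rose and 5 fell in shLAD1 cells, against scramble cells, so 17.8% of the 45 were called, next to 18.6% of all genes, of which 9.25% rose and 9.3% fell. The median log2 difference was -0.01 over the 45 genes and 0 over all genes. The genes that fell were RFC3, by 0.28 ± 0.04 (adjusted p = 0.00251), SLBP, by 0.25 ± 0.04 (adjusted p = 0.0028), TK1, by 0.29 ± 0.05 (adjusted p = 0.00755), TYMS, by 0.20 ± 0.05 (adjusted p = 0.0255), and CDC45, by 0.16 ± 0.05 (adjusted p = 0.0464). The genes that rose were MCM2, by 0.23 ± 0.05 (adjusted p = 0.0151), E2F7, by 0.32 ± 0.08 (adjusted p = 0.0235), and UHRF1, by 0.34 ± 0.10 (adjusted p = 0.0408). RFC3 had 943 and 929 normalized counts in shLAD1 cells at 0 min, against 1123 and 1212 in scramble cells. TK1 had 1609 and 1708 in shLAD1 cells at 0 min, against 1926 and 2148 in scramble cells. Neither gene's groups overlapped at any of the 3 times, and the difference ran from -0.32 to -0.23 for RFC3 and from -0.30 to -0.29 for TK1 over the times. For UHRF1 the difference was 0.27 at 0 min, 0.29 at 40 min and 0.44 at 240 min.

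Read by library number, these differences rest on 2 populations of each kind, which the labels do not name. Tested on the 4 population means, none of the 45 genes and none of all 13950 genes was called, and LAD1 itself had an adjusted p of 0.111. At an unadjusted p under 0.05 that test listed 4 of the 45 genes (RFC3, SLBP, TK1 and MCM2) and 1798 of all genes, and the smallest adjusted p was 0.283, for RFC3. In the other direction, a replicate block raised the counts to 11 rises and 11 falls, while 36.1% of all genes were called. The block added ORC1, MCM10, GINS3, RFC4, RFC5, POLA1, POLE and CHAF1A as higher and ORC6, GMNN, MCM3, MCM4, GINS2 and E2F2 as lower, with adjusted p of 0.00224 to 0.0336. Both the main fit and the block count the 3 times of a population as separate libraries, so their p-values do not measure the spread between populations. The count of 8 was 4 or 5 without any 1 of the 6 scramble libraries or of the 3 shLAD1 libraries numbered 1, and 13 or 14 without any 1 of the shLAD1 libraries numbered 2. Over all genes the count was 1460 to 1889 and 2603 to 2793 in these fits, against 2588 with all libraries. RFC3, SLBP and TK1 kept their calls in all of these single-library fits, and MCM2 missed without scramble at 40 min number 2 (adjusted p = 0.0509). E2F7, UHRF1 and CDC45 each missed without any 1 of 9 libraries and TYMS without any 1 of 7, with adjusted p of 0.0505 to 0.113.

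The shLAD1 population numbered 1 stood apart for some licensing and E2F genes. The mean log2 level of GMNN was 10.26 and 10.92 in the shLAD1 populations numbered 1 and 2, against 10.82 and 11.05 in the scramble populations. That of MCM4 was 11.49 and 12.02 in shLAD1, against 12.10 and 12.13 in scramble, and that of E2F2 was 11.04 and 11.46 in shLAD1, against 11.46 and 11.63 in scramble. None of these 3 genes was called between shRNAs by limma without a block, at -0.34 ± 0.18 for GMNN, -0.36 ± 0.13 for MCM4 and -0.30 ± 0.12 for E2F2, but all 3 were called with the replicate block (adjusted p = 0.0163, 0.0226 and 0.00404), and DESeq2 called MCM4 (-0.34, adjusted p = 0.048). In the limma test on population means their adjusted p were 0.599, 0.501 and 0.502. Both shLAD1 populations lay above both scramble populations for 12 of the 45 genes and below both for 12, which compares with 23.8% and 23.7% of all genes. Of the other named genes, differences between shLAD1 and scramble cells were 0.11 for CDC6, -0.05 for CDT1, 0.09 for MCM5, 0.03 for PCNA, -0.03 for RRM2, -0.10 for CCNE1, -0.09 for CCNE2, 0.09 for E2F1 and -0.03 for E2F8, and none was called. Leaving out the shLAD1 population numbered 1 gave 1 rise and 3 falls between shRNAs, with 1841 of all genes called. Leaving out number 2 gave 9 rises and 10 falls, with 4689 of all genes called, against 2588 in the fit to all libraries. The rise called without number 1 was not that of MCM2, E2F7 or UHRF1. Their differences were 0.177, 0.177 and 0.176 in that fit, against 0.233, 0.316 and 0.335 with all libraries. The mitosis genes moved with the knockdown too: 5 of 23 fell and none rose, led by TOP2A (-0.45). Their part was not tested. Of 9 fibroblast markers DCN was at 0 in all libraries and 6 others were near 0, but COL1A1 rose by 1.26, and the summed list was at 663 to 824 normalized counts in shLAD1 cells at 0 min, against 318 to 384 in scramble cells. PDGFRA, another of them, fell by 2.32. Of 8 leukocyte and endothelial markers CD68 rose by 0.70 and CDH5 by 1.97, but CDH5 was low, at 2.25 to 28.3 normalized counts. PTPRC was at 0 to 1.11, and the sum of the 8 was 1874 to 2620 in shLAD1 cells at 0 min, against 1842 to 1953 in scramble cells. The part of these markers was not tested.

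At 0 min alone, none of the 45 genes was called between shLAD1 and scramble cells, next to 1.56% of all genes. At an unadjusted p under 0.05 limma listed 7 of the 45 and 2197 of all genes, and the smallest adjusted p was 0.0623, for RFC3. The largest differences were those of MCM4, at -0.40, and E2F7, at 0.37. DESeq2 called RFC3 (-0.32, adjusted p = 0.031) and edgeR called 0. With the replicate block, MCM2 rose by 0.20 (adjusted p = 0.0221) and RFC3 (adjusted p = 0.0142), TK1 (adjusted p = 0.00789) and SLBP (adjusted p = 0.0205) fell, while 11.5% of all genes were called.

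**Figure D4:**
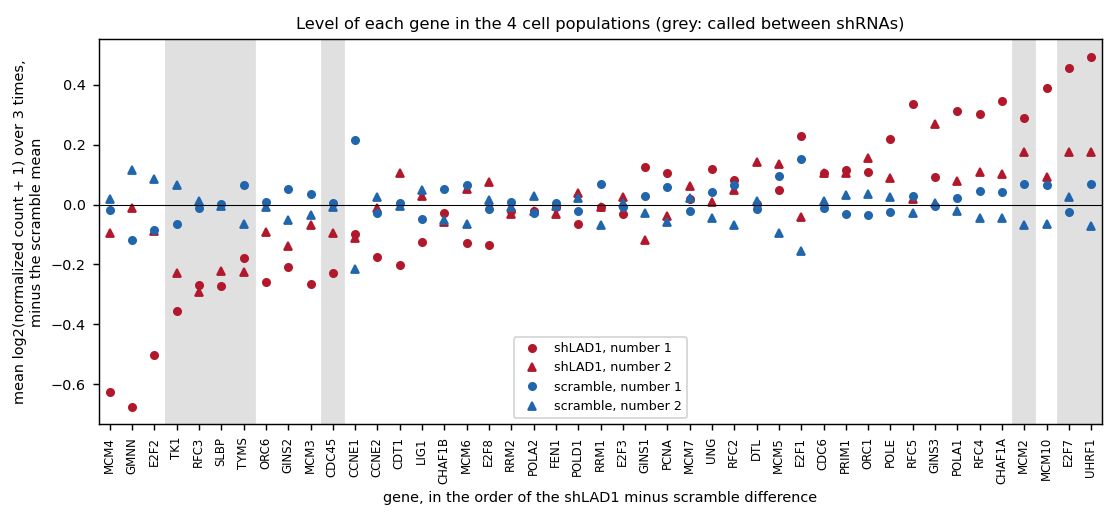
Mean log2(normalized count + 1) over the 3 times in each of the 4 cell populations, minus the scramble mean (y), for the 45 genes in order of the shLAD1 minus scramble difference (x). Red marks shLAD1 and blue scramble, circles are number 1 and triangles number 2, and grey bands mark the 8 genes called; the red circles of GMNN and MCM4 lie far below their red triangles.

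Whether LAD1 knockdown changed the response to EGF was tested as the difference of the 2 responses. Without a block, none of the 45 genes and none of all 13950 genes (0%) was called at 40 or at 240 min. At an unadjusted p under 0.05 limma listed 0 of the 45 genes at both times, and 99 of all genes at 40 min and 133 at 240 min, and edgeR and DESeq2 also called 0 of the 45. The difference of responses at 240 min ran from -0.12 (E2F2) to 0.17 (UHRF1) over the 45 genes and that at 40 min from -0.22 (E2F1) to 0.14 (CDC45). Its standard error ran from 0.081 to 0.441 over the 45 genes. LAD1 itself, with a difference of 0.67 ± 0.19 at 240 min, was not called. A difference of a size like the changes reported above could therefore be missed, and not only for the more variable genes. At 240 min the difference of responses was 0.14 for GMNN, 0.09 for CCNE1, 0.11 for FEN1 and -0.12 for ORC1.

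Genes of the same pathways outside the 45 moved in several ways at 240 min, averaged over both kinds of cell, where 16.3% of all genes fell and 18.7% rose. The lists of these genes were also chosen with earlier results of these data known. Of 33 other replication factors 15 fell and 3 rose, with a median of -0.14. CDC7, the kinase that fires origins, fell by 0.43 (adjusted p = 0.000764) and POLD3, a polymerase delta subunit, by 0.56 (adjusted p = 0.000417), while topoisomerase TOP1 rose by 0.60 (adjusted p = 0.000175). Of 26 other E2F-type targets 13 fell and 1 rose, with a median of -0.17, led by the helicase gene BLM (-0.60, adjusted p = 0.000165), the nuclease gene EXO1 (-0.35, adjusted p = 0.000434) and BRCA1 (-0.63, adjusted p = 0.000843). Of 19 nucleotide synthesis genes outside the 45, 4 rose, led by CTPS1 (0.46, adjusted p = 0.000108), GART (0.40, adjusted p = 0.000417) and UMPS (0.34, adjusted p = 0.000563), and 2 fell, which is near the shares of all genes. These are enzymes of CTP, purine and pyrimidine synthesis. Of 23 mitosis genes 20 fell and none rose, with a median of -0.43, led by TOP2A, CENPF and CCNA2 at -1.0, -0.85 and -0.54.

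The G1 regulators moved in both directions, 2 of them already at 40 min. Of the 23 tested, MYC and CDKN1A, a CDK inhibitor gene, rose at 40 min in each kind of cell. MYC rose by 1.63 in shLAD1 cells (adjusted p = 0.000321) and by 1.19 in scramble cells (adjusted p = 0.00315), and CDKN1A by 1.44 (adjusted p = 0.0418) and 1.48 (adjusted p = 0.0443). At 240 min, in the average, 5 rose and 6 fell, next to 18.7% and 16.3% of all genes. MYC was then up by 1.26 (adjusted p = 2.75e-05) and CDKN1A by 1.83 (adjusted p = 0.000141). The D-type cyclin gene CCND3 rose by 0.46 (adjusted p = 0.00012), and the CDK inhibitor gene CDKN2C fell by 1.27 (adjusted p = 3.36e-05). Between shLAD1 and scramble cells 2 of these 23 rose and 2 fell, near the 9.25% and 9.3% of all genes. Among them TFDP1, a partner of some of the E2F factors, fell by 0.45 (adjusted p = 0.000354). In the same comparison 1 of 33 other replication factors rose and 2 fell, 1 of 19 other nucleotide genes rose and 7 fell, and 1 of 26 other E2F-type targets rose and 1 fell. DUT, which keeps uracil out of DNA, fell by 0.37 (adjusted p = 0.000354) and PAICS, a purine synthesis gene, by 0.26 (adjusted p = 0.00141).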

How the data were processed

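Poly-A RNA of 12 HCC70 libraries was sequenced (TruSeq RNA v2 kit, per the labels). STAR, DESeq2 and hg19 are listed in the submitters' processing notes. What is not given in the sources used here is their versions, the counting tool, the annotation and whether strand was used. The signal values deposited by the authors are read counts per gene symbol over 1 size factor for each library. Taking a column's smallest nonzero value as 1 read, 100% of values came out as whole reads (tolerance 0.001). The deposited table held no other sample column.

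The 45 genes, their roles and the other lists were chosen with earlier results of these data known. limma 3.58.1 (limma-trend, robust, R 4.3.3) was fitted to log2(normalized count + 1) with a mean per group over the 12 libraries, on the 13950 genes that reached 10 normalized counts in 2 or more libraries. All 45 genes passed. Values therefore understate changes of low genes, and p-values were adjusted over all genes tested by the Benjamini-Hochberg method, in each of 9 comparisons. In each, the text names up to 12 called genes with the smallest adjusted p, 14 genes of known interest whatever their p in the main comparisons, and the extremes of the role groups; others, and the promoters shown, were chosen after their values were seen. Alternatives were edgeR 4.0.16 and DESeq2 1.42.0 on the recovered reads, other scalings, filters, pseudocounts and fits. The scripts were tested on simulated data.

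The labels do not say whether replicates are separate cultures, so p-values reflect no more than the spread among these samples, possibly a technical one. Replicates of a group differed by more than counting noise. The labels' replicate numbers paired the samples: deviations from group means had correlations of 0.645 to 0.734 between groups that share an shRNA (6 pairs) and of 0.247 to 0.307 between groups that do not (9 pairs). A fit with a replicate block is given where it changed a call or a count. Exon overlaps came from GENCODE on GRCh38 and promoters from RefSeq on GRCh38.p14. MCM4, MCM5, CCNE2 and E2F8 had no promoter entry used here.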

Additional observations from a re-analysis of the deposited data

How the results depend on the processing

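The lowest value of the 45 genes was 193 normalized counts, and each group had 2 libraries; which of depth and library number limits the calls was not tested. The counts of called genes at 240 min moved most. For shLAD1 cells (10 called) total-count scaling gave 20, a fit on only the groups compared 1, the replicate block 23, a block within each shRNA 29, leaving out shLAD1 population 1 gave 5 and population 2 gave 4, and single libraries left out gave 6 to 7. Over all genes 2585 were called there and, in the same order, 2935, 313, 4249, 6450, 1957, 1032 and 1300 to 1888. For scramble cells (11 called) total-count scaling gave 23, the replicate block 21, the block within each shRNA 31, and single libraries left out 5 to 11. The counts over all genes were 2813 there and, in the same order, 3346, 4557, 6715 and 1355 to 1699. For the average (26 called) single libraries left out gave 16 to 18. Without the filter on low values 20 were called and with total-count scaling 33. All-gene counts were 4885 there and, in the same order, 3757 to 4341, 4576 and 5674. Between shRNAs at 0 min (0 called) DESeq2 gave 1 and the replicate block 4, with 217 of all genes called in the main fit, 510 and 1600. Between shRNAs averaged over times (8 called) the replicate block gave 22, population means 0, leaving out shLAD1 population 1 gave 4 and population 2 gave 19, and single libraries left out 4 to 14. Over all genes 2588 were called in that comparison and, in the same order, 5034, 0, 1841, 4689 and 1460 to 2793. In the other comparisons none of the 45 genes was called under any alternative, while the counts over all genes changed. With the block within each shRNA these went from 145 to 666 in shLAD1 cells at 40 min and from 119 to 530 in scramble cells. For the difference of responses they went from 0 to 11 at 40 min and to 27 at 240 min. The population fits were chosen after seeing the data. A fit of only the groups compared does not exist for the average over times, which uses all groups. Of genes named, none that was called reversed. RRM2 at 240 min turned to -0.006 (upper-quartile) and -0.077 (total-count scaling) in shLAD1 cells, to -0.027 and -0.116 in scramble cells, and to -0.016 and -0.097 in the average. Without single libraries it ran from -0.033 to 0.057 in scramble cells, TYMS there from -0.15 to 0.051 and E2F1 in shLAD1 cells from -0.34 to 0.014. Between shRNAs, without shLAD1 population 1, CDT1 turned to 0.106, PCNA to -0.039, E2F1 to -0.039 and E2F8 to 0.074. Without single libraries CDT1 ran from -0.115 to 0.017, PCNA from -0.015 to 0.084 and E2F8 from -0.076 to 0.016. The cause was not tested.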
